A study of Homo sapiens with 16 samples.

Results

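Metallothioneins are a family of small, cysteine-rich proteins, and their transcripts were followed here in non-small cell lung cancer cells with or without a knockout of ZC3H12A, the gene of the RNase Regnase-1. The set comprised 7 genes listed by symbol: the metallothioneins MT1E, MT1F, MT1G, MT1M, MT1X and MT2A, and MTF1, the transcription factor that switches them on. Of these, 4 had a row among the 18227 genes of the deposited tables, namely MT2A (ENSG00000125148), MT1X (ENSG00000187193), MT1F (ENSG00000198417) and MTF1 (ENSG00000188786). MT1E, MT1G and MT1M were not analysed here. Nor were other metallothionein genes such as MT1A, MT1B, MT1H, MT3 and MT4, so shares of the family below cover the measured genes only. None of the 4 was removed by a filter on low values, because the test used none.

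RNA was sequenced from A549 and H2023, both established human cell lines, with 2 libraries in each of 8 groups. In each line, wild-type cells and cells labelled as ZC3H12A knockout were harvested after 3 days of normal culture or after 7 days of oncosphere culture, which enriches stem-like cells, so culture type and time changed together. The titles name 1 knockout clone per line, so a difference from wild type also holds whatever else sets that clone apart, and the 2 libraries of a knockout group come from 1 clone. The labels do not say whether replicates were separate cultures, and p-values therefore measure the spread between these libraries, which may be technical.

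Metallothioneins bind zinc, copper and cadmium through their cysteines, buffer free zinc and take up reactive oxygen species. MTF1 senses a rise in free zinc, moves to metal response elements in the promoters of metallothionein genes and of SLC30A1, the zinc exporter of the plasma membrane, and raises their transcription. Glucocorticoids, oxidants and inflammatory signals also raise MT2A, the metallothionein that most human epithelial cells express at the highest level. In lung cancer cells the family is known for its part in resistance to metal-containing drugs and oxidative stress.

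The promoters of MT2A and MT1X are shown because they hold the elements through which MTF1 acts, and because these genes gave nearly all of the measured metallothionein signal. Each sequence is the 250 bases before the RefSeq transcription start (GRCh38.p14), 5′ to 3′ on the gene's strand. Capitals mark the core of the metal response element, searched on both strands as TGCACNC or TGCGCNC.
MT2A, chr16:56608334-56608583, plus strand: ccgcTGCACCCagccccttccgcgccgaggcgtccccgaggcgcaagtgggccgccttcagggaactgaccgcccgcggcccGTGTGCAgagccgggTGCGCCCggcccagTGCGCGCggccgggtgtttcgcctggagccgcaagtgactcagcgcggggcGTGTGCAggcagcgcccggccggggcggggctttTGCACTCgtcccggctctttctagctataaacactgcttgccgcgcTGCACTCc
MT1X, chr16:56682220-56682469, plus strand: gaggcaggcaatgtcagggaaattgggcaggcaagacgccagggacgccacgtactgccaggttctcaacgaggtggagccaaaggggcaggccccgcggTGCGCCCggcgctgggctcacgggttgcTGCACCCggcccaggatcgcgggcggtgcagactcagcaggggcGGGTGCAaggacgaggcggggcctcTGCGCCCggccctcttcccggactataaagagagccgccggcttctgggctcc
The MT2A window held 7 such matches, 5 forward and 2 reverse, and 0.0313% of 35116 RefSeq promoter windows of that length held as many. The MT1X window held 4, 3 forward and 1 reverse, a number reached by 0.37% of windows. The SLC30A1 window held 1 match and that of MTF1 held none, against 24.8% of all windows with at least 1. A match is a string of letters and not a measured binding site. MT1F was not among the promoters used here.

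In GRCh38 (GENCODE 29), the metallothionein genes stand side by side on chromosome 16. MT2A spans 56608199 to 56609497 on the plus strand, MT1F 56657694 to 56660698 on the plus strand and MT1X 56682424 to 56684196 on the plus strand. RefSeq and GENCODE place the starts differently. The MT2A window shown above lies inside the GENCODE span of MT2A, and the end of the MT1X window lies inside that of MT1X. MTF1 lies on chromosome 1 at 37809567 to 37859620 on the minus strand. Because the relatives are alike in sequence, the 50-base windows of each longest coding transcript were compared with all other annotated genes. The MT2A transcript shared 36 of 737 windows (4.88%), MT1F 23 of 641 (3.59%) and MTF1 51 of 7923 (0.644%). MT1X shared 273 of 489 windows (55.8%), all of them with AC026461.1, an annotated transcript that overlaps it and that was not analysed here. How reads shared by several genes were assigned is not given in the sources used here, so MT1X is the least certain of the 4.

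Levels are given in TPM, which counts transcripts relative to all transcripts of a library and corrects for transcript length and so allows genes to be compared. Each library summed to 991838 to 998125 TPM, and 13824 to 14508 genes reached 1 TPM in it. TPM keeps no read depth, and the deposited mean normalized counts summed to 20453740 to 22760512 over a table's genes. Replicates correlated across genes with r of 0.983 to 0.992. The mitochondrial share of TPM was 10.304% to 18.703% for normal culture and 19.533% to 25.581% for oncospheres. ZC3H12A itself averaged 32.8 ± 2.94 TPM in wild-type and 18.4 ± 2.14 in knockout A549 cells in normal culture (SD, n = 2), but 48.8 ± 0.488 against 57.9 ± 3.23 in A549 oncospheres, 28.3 ± 2.17 against 41.5 ± 0.0424 in H2023 normal culture and 29.5 ± 4.33 against 81.9 ± 18.0 in H2023 oncospheres. Its mRNA was thus higher in the libraries labelled knockout in 3 of the 4 settings, and "knockout" below means the library so labelled. All 5 epithelial markers were measured and summed to 1450 to 10680 TPM. Of the lung lineage markers only NAPSA had a row (1.02 to 6.03 TPM). Of the leukocyte markers, CD14 and CD68 were measured, and of the endothelial markers PECAM1, which stayed at or under 2.76 TPM. CD14 and CD68 summed to 45.44 to 58.92 TPM in A549 wild-type normal culture, 144.2 to 226.5 TPM in A549 wild-type oncospheres and 31.28 to 129.4 TPM in the other groups.

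MT2A supplied nearly all of the measured metallothionein transcripts. The sum of MT2A, MT1X and MT1F ran from 164.96 to 1048.2 TPM with a median of 506 over the 16 libraries, which was 0.0165% to 0.105% of all TPM. MT2A made up 81.0% to 95.9% of that sum, MT1X 3.49% to 17% and MT1F 0.208% to 2.01%. With a mean of 513.9 TPM, MT2A ranked 234 among all genes. MT1X averaged 34.03 TPM, MTF1 5.98 TPM and MT1F 3.76 TPM. The reads behind these levels also depend on transcript length: the longest coding transcript has 786 nt for MT2A, 538 nt for MT1X, 690 nt for MT1F and 7972 nt for MTF1. The authors' deposited table gives mean normalized counts of 1049 to 2076 for MT2A over the 4 settings, 439.7 to 928.8 for MTF1, 74.5 to 150.2 for MT1X and 12.9 to 20.9 for MT1F. MT1F thus rested on the fewest reads of the set.

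In A549 normal culture, MT2A stood at 621.45 and 353.05 TPM in the wild-type libraries (replicate 1, then 2) and at 1003.03 and 489.42 TPM in the knockout libraries. The ranges overlapped. In A549 oncospheres, MT2A measured 287.9 and 133.67 TPM in wild-type and 604.33 and 260.39 TPM in knockout cells, again with overlap. In H2023 normal culture, MT2A measured 440.96 and 259.56 TPM in wild-type and 750.35 and 847.53 TPM in knockout cells, and both knockout libraries lay above both wild-type libraries. In H2023 oncospheres, MT2A measured 220.54 and 559.71 TPM in wild-type and 419.16 and 970.71 TPM in knockout cells, with overlap. The 8 group means ran, from high to low, 798.9 (H2023 normal knockout), 746.2 (A549 normal knockout), 694.9 (H2023 oncosphere knockout), 487.2 (A549 normal wild type), 432.4 (A549 oncosphere knockout), 390.1 (H2023 oncosphere wild type), 350.3 (H2023 normal wild type) and 210.8 TPM (A549 oncosphere wild type). Replicates of each of the 7 neighbouring pairs in that order overlapped.

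**Figure D1:**
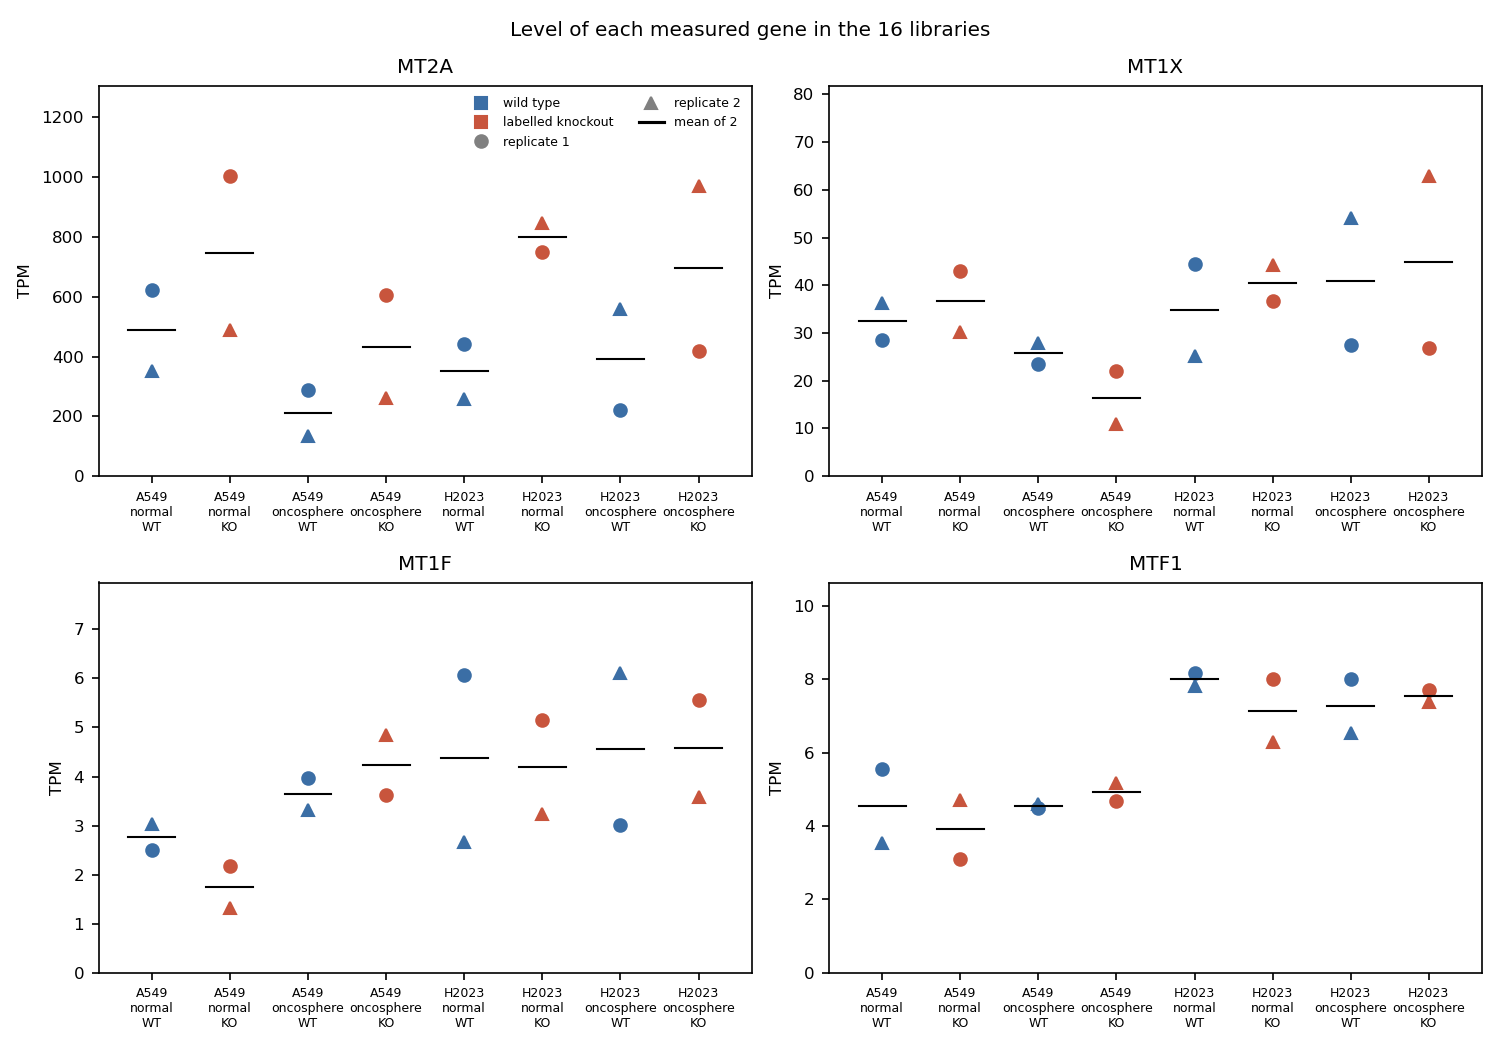
TPM of MT2A, MT1X, MT1F and MTF1 in the 16 libraries on linear axes from 0, by group (x axis). Circles are replicate 1, triangles replicate 2, blue wild type, red labelled knockout, and the line is the mean of 2. MT2A replicates overlap between wild type and knockout in every setting but H2023 normal culture, while MTF1 is at 6.28 TPM or above in all H2023 libraries and at 5.54 TPM or below in all A549 libraries.

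MT1X in A549 normal culture measured 28.53 and 36.34 TPM in wild-type and 43.03 and 30.25 TPM in knockout cells. In A549 oncospheres it measured 23.57 and 27.97 TPM in wild-type and 22.01 and 10.84 TPM in knockout cells, so that both knockout libraries were below both wild-type libraries. In H2023 normal culture the values were 44.4 and 25.28 TPM for wild type and 36.67 and 44.26 TPM for knockout. They were 27.59 and 54.1 TPM for wild type and 26.81 and 62.88 TPM for knockout in H2023 oncospheres. The A549 oncosphere groups, with means of 25.77 TPM in wild-type and 16.42 TPM in knockout cells, held the lowest MT1X levels of the 8 groups, and neither overlapped with the group next above it in the order of means. The 6 other groups averaged 32.44 to 44.84 TPM, and neighbours among them overlapped.

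MT1F, a minor metallothionein in these cells, measured 2.5 and 3.03 TPM in wild-type and 2.18 and 1.32 TPM in knockout A549 cells in normal culture. These groups, with means of 2.77 and 1.75 TPM, were the lowest of the 8 and overlapped neither with each other nor with the group next above. In A549 oncospheres MT1F measured 3.98 and 3.32 TPM in wild-type and 3.62 and 4.84 TPM in knockout cells. In H2023 it measured 6.08 and 2.66 TPM (wild type) and 5.15 and 3.23 TPM (knockout) in normal culture. In H2023 oncospheres it measured 3.01 and 6.12 TPM (wild type) and 5.56 and 3.59 TPM (knockout). The H2023 groups and the A549 oncospheres averaged 3.65 to 4.58 TPM, with overlap between all neighbours.

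MTF1, the metal sensor, was the steadiest of the set. In A549 it measured 5.54 and 3.53 TPM in wild-type and 3.11 and 4.71 TPM in knockout cells in normal culture. In A549 oncospheres it measured 4.48 and 4.59 TPM in wild-type and 4.68 and 5.18 TPM in knockout cells. In H2023 normal culture it measured 8.18 and 7.81 TPM in wild-type and 8.01 and 6.28 TPM in knockout cells. In H2023 oncospheres it measured 8 and 6.52 TPM in wild-type and 7.7 and 7.38 TPM in knockout cells. The lowest H2023 library lay above the highest A549 library, and group means ran from 3.91 to 4.93 TPM in A549 and from 7.145 to 7.995 TPM in H2023. Within a line, groups next to each other in that order overlapped, except H2023 wild type in normal culture over H2023 knockout oncospheres and A549 knockout over A549 wild-type oncospheres.

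Replicates of MT2A differed more than those of nearly all other genes. The SD between replicates, pooled over the 8 groups on the log2(TPM + 1) scale, was 0.719 for MT2A and 0.522 for MT1X. Among 10937 genes with a mean of at least 5 TPM, 99.4% had a lower SD than MT2A and 97.9% a lower SD than MT1X. Among the 372 genes within 1 log2 unit of MT2A's mean level, 99.7% had a lower SD. MT1F had a replicate SD of 0.40 and MTF1 one of 0.208. MT2A was higher in replicate 1 in all 4 A549 groups and in H2023 wild-type normal culture, and in replicate 2 in H2023 knockout normal culture and both H2023 oncosphere groups. The higher replicate was the same for MT1X in 6 of the 8 groups, for MT1F in 4 and for MTF1 in 2. It was the same in 6 groups for HSPA1A, a heat-shock gene, and in 2 for HMOX1, a heme and heavy-metal response gene.

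In the 4 comparisons of knockout with wild type, none of the 4 measured genes passed limma's test at an adjusted p of 0.05 over all genes. MT2A averaged higher in the knockout in every setting. The difference was 0.58 on the log2(TPM + 1) scale in A549 normal culture (95% interval -0.48 to 1.64, adjusted p = 0.393) and 1.01 in A549 oncospheres (-0.27 to 2.30, adjusted p = 0.253), limma. It was 1.23 in H2023 normal culture (0.46 to 2.01, SE 0.28, adjusted p = 0.185) and 0.86 in H2023 oncospheres (-0.96 to 2.68, adjusted p = 0.569), limma. As folds these are 1.5, 2.02, 2.35 and 1.81. The same test called 10.8% and 13.2% of all genes in A549 normal culture and A549 oncospheres, and 0% in either H2023 setting, where 3314 and 2828 genes had an unadjusted p under 0.05. The lack of a limma call in H2023 therefore does not set MT2A apart from other genes.

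The authors' deposited table called 1 of the 4 genes in 1 setting: MT2A in H2023 normal culture, with a log2 fold change of 1.19 (SE 0.20, adjusted p = 2.23e-07), where 10.8% of genes with an adjusted p were called. It called none of the 4 in A549 normal culture (22.1% of genes called), A549 oncospheres (20.7%) or H2023 oncospheres (5.07%). The MT2A log2 fold changes in the authors' deposited table were 0.71 (SE 0.64, adjusted p = 0.49), 1.00 (SE 0.76, adjusted p = 0.427) and 0.80 (SE 0.81, adjusted p = 0.762) in these 3 settings. In limma the H2023 normal call was reached (adjusted p = 0.0363) when genes with a mean below 1 TPM were left out first, with the same difference. The share of all genes called after that filter is not given here, so this call does not set MT2A apart. Leaving out wild-type replicate 2 of H2023 normal culture gave 0.85 (adjusted p = 0.333), and leaving out wild-type replicate 1 gave 1.62 (adjusted p = 0.201), limma.

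The mean knockout effect on MT2A over both lines and both cultures was 0.92 on the log2(TPM + 1) scale, a 1.89-fold difference (95% interval 0.28 to 1.57, SE 0.30, adjusted p = 0.0432, limma over all 16 libraries). This test was added after the values of the separate settings had been seen. MT2A was the only 1 of the 4 genes that passed it, and it called 21.9% of all genes. The call did not hold without the 4 H2023 libraries in normal culture (0.82, adjusted p = 0.146, limma). It was also lost when any of 9 single libraries was left out, with differences of 0.75 to 0.94 and limma adjusted p of 0.0738 to 0.101: replicate 2 of A549 normal wild type, A549 oncosphere wild type, H2023 normal wild type and H2023 oncosphere knockout, replicate 1 of A549 normal knockout, A549 oncosphere knockout and H2023 oncosphere wild type, and either H2023 normal knockout library. Fits without a single library leave 1 in a group for every gene, so the calls lost in them do not set MT2A apart. The test of a difference in the knockout effect between lines gave 0.65 in normal culture (H2023 minus A549, -0.64 to 1.95, adjusted p = 0.482) and -0.15 in oncospheres (-2.27 to 1.96, adjusted p = 0.941), limma. Between cultures (oncosphere minus normal), the effect on MT2A differed by 0.43 in A549 (-1.30 to 2.17, adjusted p = 0.761) and by -0.38 in H2023 (-2.27 to 1.51, adjusted p = 0.954), limma. No member passed any of these 4 interaction tests, which called 12.3% (line, normal culture), 9.85% (line, oncospheres), 6.65% (culture, A549) and 0% (culture, H2023) of all genes. In the last, 1294 genes had an unadjusted p under 0.05.

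Vimentin moved in the same direction as MT2A. VIM, an intermediate filament gene high in mesenchymal cells, measured 634.13 to 798.48 TPM in wild-type and 1122.8 to 1405.34 TPM in knockout A549 cells in normal culture, and its mean knockout effect was 0.69 (adjusted p = 0.00277, limma). The mesenchymal list had 3 of 6 genes measured (VIM, COL1A1 and LUM), and its summed level, nearly all of it VIM, was higher in the knockout without overlap in all 4 settings: 637.4 to 800.9 against 1127 to 1409 TPM, 373.8 to 408.6 against 513.4 to 577.5 TPM, 571.9 to 636.8 against 897.9 to 948.2 TPM, and 167.2 to 301.2 against 305.6 to 484.1 TPM (A549 normal, A549 oncosphere, H2023 normal, H2023 oncosphere). The list as a whole did not follow VIM, with median knockout differences of 0.33, -0.52, -0.75 and -0.57 on the log2(TPM + 1) scale in that order. LUM, a proteoglycan gene at 3.53 TPM or less in every library, had knockout values below wild type in 3 settings and overlapping ones in H2023 oncospheres, and the authors' deposited table called it lower in A549 oncospheres (-3.40). The authors' deposited table called COL1A1, a collagen gene, lower in both H2023 settings (-1.01 in normal culture, adjusted p = 0.000747, and adjusted p = 0.00596 in oncospheres). The epithelial sum, mostly the keratins KRT8 and KRT18, was lower in the knockout in A549 normal culture (1450 to 2523 against 7417 to 7626 TPM) and higher in both H2023 settings (9816 to 10680 against 5887 to 7299 TPM, and 6553 to 7087 against 3420 to 3446 TPM). It overlapped in A549 oncospheres (4995 to 7195 against 5230 to 6570 TPM). There limma called 2 of the 5 epithelial markers lower, EPCAM (-2.33, adjusted p = 0.00452) and KRT19 (-3.68, adjusted p = 0.00819). For H2023 normal culture the authors' deposited table called KRT8 and KRT18 higher and KRT19 lower (-1.30), and the list median was -0.31. The part of these markers in the MT2A result was not tested. In these bulk libraries, a change in the number of cells of a kind and a change in RNA per cell cannot be told apart.

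The other 3 genes showed no common direction. MT1X differed between knockout and wild type by 0.16 in A549 normal culture (adjusted p = 0.639), -0.69 in A549 oncospheres (-1.51 to 0.13, adjusted p = 0.225), 0.26 in H2023 normal culture (adjusted p = 0.685) and 0.09 in H2023 oncospheres (adjusted p = 0.96), limma. MT1F differed by -0.47 in A549 normal culture (-1.06 to 0.12, adjusted p = 0.236), without overlap, and by 0.16, 0.00 and 0.04 in the other settings. MTF1 differed by -0.17, 0.10, -0.15 and 0.05, and its knockout libraries lay above wild type without overlap in A549 oncospheres, where the authors' deposited table has the opposite sign (-0.24). The mean knockout effects were -0.05 for MT1X (-0.52 to 0.42), -0.07 for MT1F (-0.45 to 0.32) and -0.04 for MTF1 (-0.28 to 0.19), and none passed limma's test. The median difference of the 4 measured genes was 0.00, 0.13, 0.13 and 0.07 in the 4 settings, against -0.03, 0.03, 0.01 and 0.06 over all 18227 genes.

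**Figure D2:**
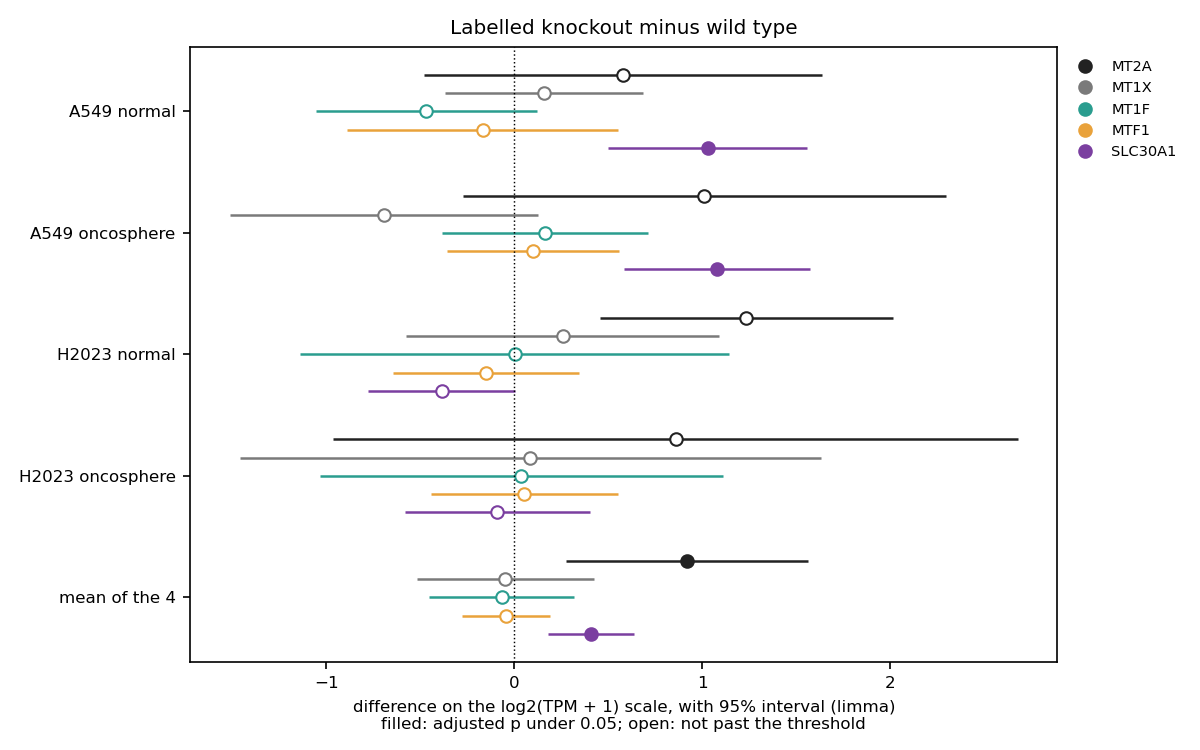
Difference between labelled knockout and wild type (x axis, log2(TPM + 1) scale) for MT2A, MT1X, MT1F, MTF1 and the zinc exporter SLC30A1 in the 4 settings and as their mean (y axis). Points are limma estimates, bars 95% intervals, and filled points have an adjusted p under 0.05. MT2A lies right of 0 in every setting and passes the test only as the mean of the 4, while SLC30A1 passes in the A549 settings and as the mean.

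Within single libraries, the ratio of MT2A to MT1X lay higher in the knockout in 3 settings and overlapped in A549 normal culture. The ratio of their TPM was 9.93 and 10.3 in wild-type and 20.5 and 19.1 in knockout cells in H2023 normal culture. In H2023 oncospheres it was 7.99 and 10.3 in wild-type and 15.6 and 15.4 in knockout cells. In A549 oncospheres it was 12.2 and 4.78 in wild-type and 27.5 and 24.0 in knockout cells. These 3 settings showed no overlap, whereas the ratios overlapped in A549 normal culture (21.8 and 9.72 in wild-type, 23.3 and 16.2 in knockout cells). Replicates of a group lay closer in this ratio than in MT2A itself in H2023. The ratio was looked at after the levels had been seen, has no test, and shows unequal levels of the pair, not which of them changed. Separation of groups this small can arise by chance, and how often other gene pairs show it was not determined. The denominator, MT1X, is also the least certain gene of the set, with 55.8% of its windows shared with another gene.

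**Figure D3:**
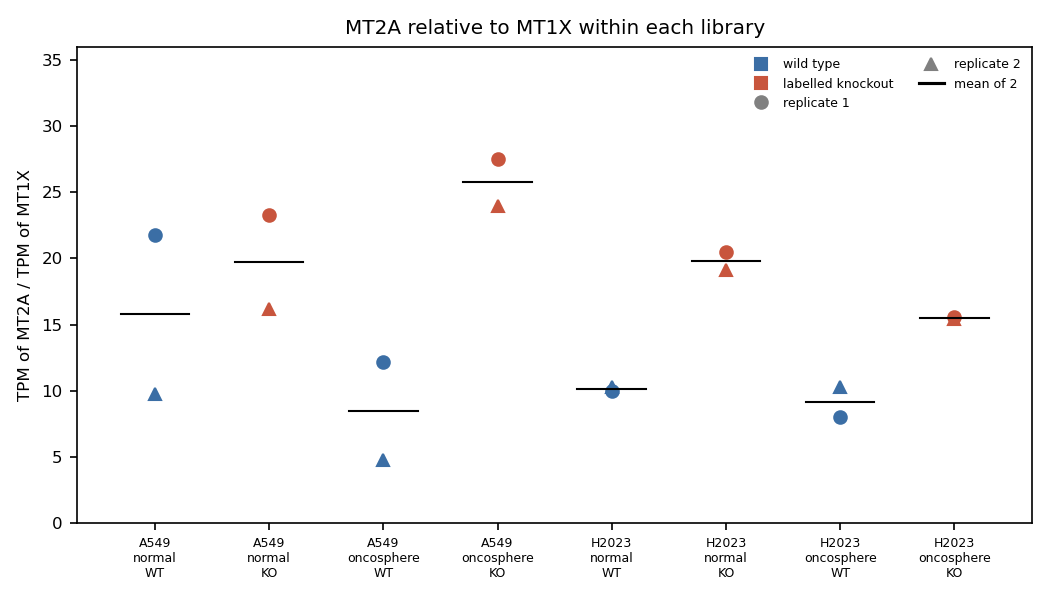
TPM of MT2A divided by TPM of MT1X in each of the 16 libraries (y axis, linear from 0), by group (x axis). Circles are replicate 1, triangles replicate 2, blue wild type, red labelled knockout, and the line is the mean of 2. Knockout libraries lie above wild type in every setting but A549 normal culture, where the groups overlap, and the H2023 replicates lie close in 3 of the 4 groups and at 7.99 and 10.3 in wild-type oncospheres.

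MT1F and MT1X differed past the threshold between the cultures, which also differ in time, in A549 knockout cells. There MT1F rose from normal culture to oncospheres by 0.94 on the log2(TPM + 1) scale (0.41 to 1.46, adjusted p = 0.0238) and MT1X fell by 1.17 (interval -1.87 to -0.46, adjusted p = 0.0301), limma over the 8 A549 libraries. These were 2 of the 4 measured genes, where 20.8% of all genes were called. MT1F had low mean normalized counts in the authors' deposited table, 12.89 in A549 normal culture and 17.44 in A549 oncospheres. Both calls rest on few libraries. A fit without 1 of them leaves 1 library in a group for every gene, so the calls lost below do not set MT1F and MT1X apart. The MT1F call was lost without replicate 2 of knockout normal culture (0.71, adjusted p = 0.139) or without either oncosphere library of the knockout (1.10, adjusted p = 0.0506 without replicate 1, and 0.77, adjusted p = 0.124 without replicate 2), limma. The MT1X call was lost without either library of knockout normal culture (-0.92, adjusted p = 0.17 without replicate 1, and -1.42, adjusted p = 0.0565 without replicate 2) or without replicate 2 of the knockout oncospheres (-0.69, adjusted p = 0.119), limma. Neither passed in 1 fit over all 16 libraries (adjusted p = 0.0808 and 0.0751, limma). In A549 wild-type cells MT1F differed by 0.30 and MT1X by -0.32 without passing, and the difference between genotypes was not past the threshold for MT1F (0.63, adjusted p = 0.27) or MT1X (-0.85, adjusted p = 0.262), limma.

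MT2A was lower in oncospheres than in normal culture in A549 wild-type cells, without overlap, at -1.25 on the log2(TPM + 1) scale (-2.48 to -0.02, adjusted p = 0.0951, limma). No member was called there, against 40.6% of all genes. In the same contrast CD68, a lysosomal gene used as a macrophage marker, rose by 1.79 (adjusted p = 0.00136, limma), and its part in the MT2A values was not tested. In A549 knockout cells the MT2A difference was -0.82 (adjusted p = 0.325, limma), with overlap. In H2023 it was 0.05 in wild-type and -0.32 in knockout cells, and no member passed in either, against 21.4% and 26.9% of all genes. The median gene at 1 TPM or more moved by -0.24 and -0.18 in these H2023 contrasts (wild type, then knockout). MTF1 did not pass any culture contrast, with differences of 0.02 and 0.29 in A549 (wild type, then knockout) and -0.13 and 0.08 in H2023.

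MTF1 was higher in H2023 than in A549 wild-type cells, by 0.72 in normal culture (0.14 to 1.31, adjusted p = 0.0494) and by 0.57 in oncospheres (0.17 to 0.97, adjusted p = 0.0317), limma over the 8 libraries of a culture. It was the 1 member called in each, where 42.4% and 42.5% of all genes were called. In normal culture the median gene was 0.16 higher in H2023, and centring on it reduced the MTF1 difference to 0.51 (adjusted p = 0.111, limma). Without A549 wild-type replicate 2 the normal culture difference was 0.46 (adjusted p = 0.243), and it did not pass without either H2023 wild-type library (0.69, adjusted p = 0.148, and 0.75, adjusted p = 0.123), limma. In oncospheres the call was lost without either A549 wild-type library (0.56, adjusted p = 0.107, and 0.59, adjusted p = 0.0911) or without H2023 wild-type replicate 1 (0.44, adjusted p = 0.147), limma. Fits without 1 library leave 1 in a group for every gene, so these losses do not set MTF1 apart. The metallothioneins did not pass: MT2A differed by -0.47 in normal culture and 0.84 in oncospheres, MT1X by 0.06 and 0.57, and MT1F by 0.44 and 0.20.

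**Figure D4:**
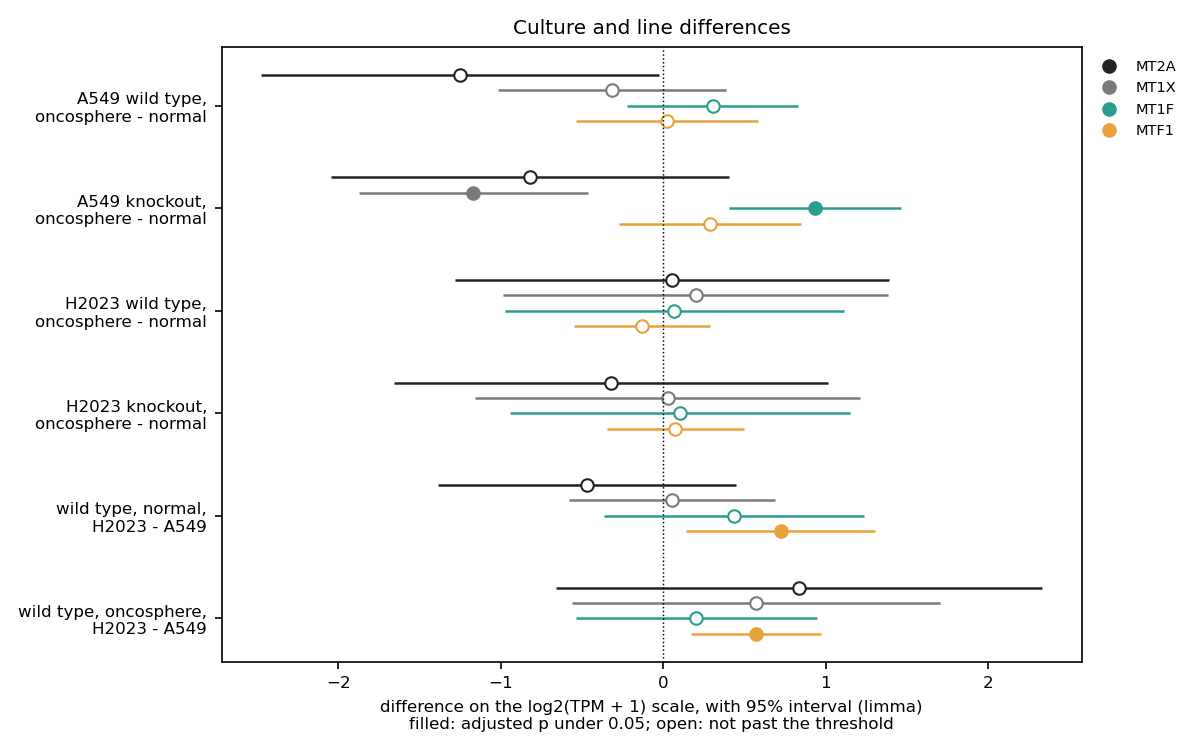
Differences between cultures (oncosphere minus normal, within a line and genotype) and between lines (H2023 minus A549, wild type) for MT2A, MT1X, MT1F and MTF1, on the log2(TPM + 1) scale (x axis). Points are limma estimates, bars 95% intervals, and filled points have an adjusted p under 0.05. The filled points are MT1X and MT1F in A549 knockout cells and MTF1 in both line contrasts.

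SLC30A1, another target of MTF1, rose with the knockout in A549 and did not pass the test in H2023. In A549 normal culture it measured 18.05 and 27.11 TPM in wild-type and 42.92 and 49.78 TPM in knockout cells, and in A549 oncospheres 29.64 and 33.97 TPM in wild-type and 56.74 and 81.8 TPM in knockout cells. It rose by 1.03 (SE 0.21, adjusted p = 0.0422) and 1.08 (SE 0.20, adjusted p = 0.0264) on the log2(TPM + 1) scale, limma. In H2023 normal culture it measured 20.98 and 25.7 TPM in wild-type and 16.81 and 18.31 TPM in knockout cells, a difference of -0.39 without overlap (adjusted p = 0.279), and in H2023 oncospheres 24.66 and 18.71 against 19.41 and 20.9 TPM, a difference of -0.09 (adjusted p = 0.839), limma. The knockout effect differed between lines by -1.42 in normal culture (adjusted p = 0.0182) and -1.17 in oncospheres (adjusted p = 0.046), limma. Each A549 call was lost when any 1 of its 4 libraries was left out, at differences of 0.75 to 1.31 and 0.82 to 1.34, and the normal culture call also on TPM rescaled without mitochondrial genes (1.07, adjusted p = 0.0508, limma). A fit without 1 of the 4 libraries leaves 1 library in a group for every gene, so these losses do not set SLC30A1 apart. In H2023 normal culture, where the MT2A estimate was largest, SLC30A1 was not higher. The MT2A effect did not differ between settings past the threshold, and a link between the genes was not tested.

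Among 8 measured zinc exporters, most of which move zinc out of the cytosol, SLC30A1 was the only 1 that limma called higher in either A549 comparison. There 10.8% (normal culture) and 13.2% (oncospheres) of all genes were called. The authors' deposited table also called SLC30A4 higher in A549 normal culture (0.96, adjusted p = 0.0172), a gene at 0.88 and 0.79 TPM in wild-type and 1.31 and 2.05 TPM in knockout cells. TMEM163, at 0.56 TPM or less in those libraries, fell by 0.52 in A549 oncospheres (adjusted p = 0.0498, limma). Of 12 measured importers, which bring zinc in, 1 fell in A549 normal culture: SLC39A8, from 25.64 and 24.94 TPM in wild-type to 13.69 and 10.28 TPM in knockout cells (a log2 difference of -1.03, adjusted p = 0.0259, limma). In A549 oncospheres SLC39A6 rose by 1.00 (adjusted p = 0.0134), while SLC39A5 fell by 1.85 (adjusted p = 0.00379) and SLC39A14 fell by 0.99 (adjusted p = 0.0195), limma. SLC39A5 stood at 2.71 and 2.52 TPM in the wild-type oncospheres and was listed at 0 in both knockout libraries. In A549 oncospheres the authors' deposited table called 2 importers higher and 2 lower, against 20.7% of all genes. One of those higher was SLC39A10 (log2 fold change 0.90, adjusted p = 0.00292), which it did not call in A549 normal culture (1.18, adjusted p = 0.0972). In H2023 no exporter or importer passed limma's test. The authors' deposited table called SLC39A8 (log2 fold change -0.60) and SLC39A1 (-0.52) lower in H2023 normal culture and none in oncospheres. Over all 16 libraries, where 21.9% of genes were called, limma called 1 of the 8 exporters higher, 1 of the 12 importers higher and 4 lower. The medians of the exporters and importers lay between -0.15 and 0.06 in the 4 settings. Without any 1 of its 4 libraries, no A549 call of SLC39A8, TMEM163, SLC39A5 or SLC39A6 held, and TMEM163 was not called in the authors' deposited table (adjusted p = 0.0834). Such a fit leaves 1 library in a group for every gene, so a lost call does not set these genes apart from others. SLC39A14 was not refitted in this way.

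**Figure D5:**
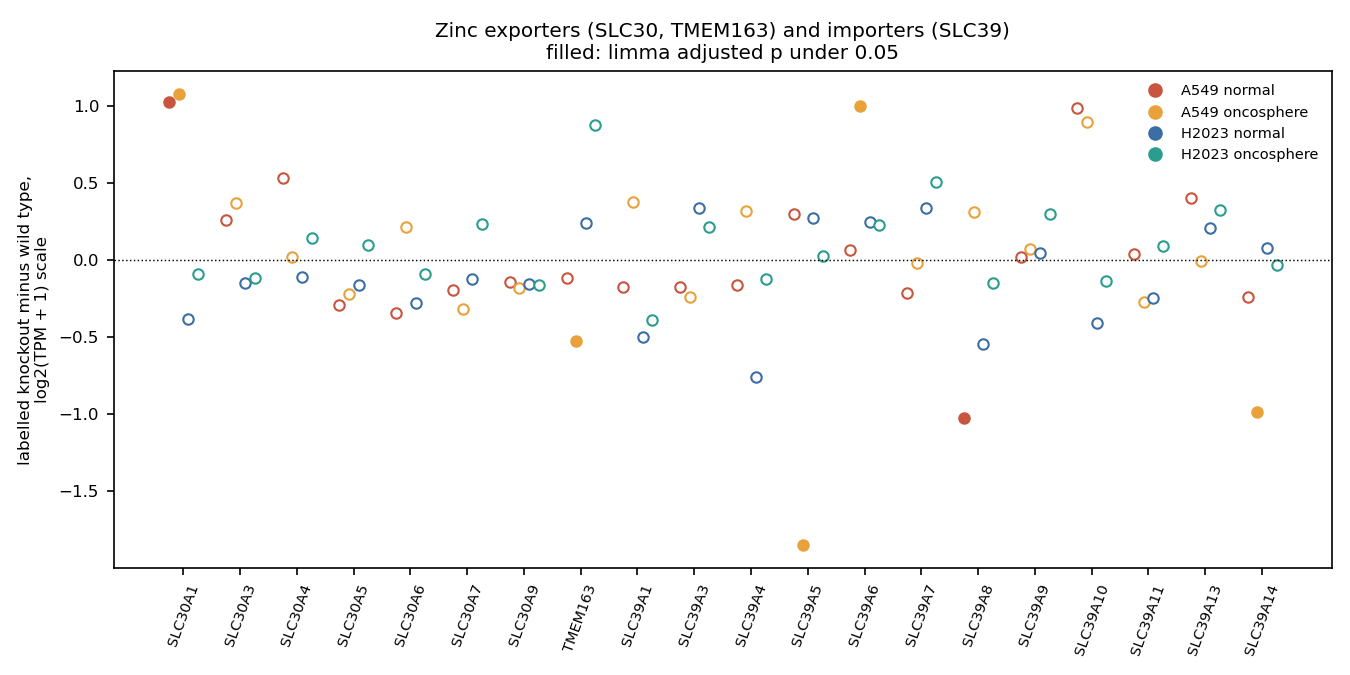
Difference between labelled knockout and wild type (y axis, log2(TPM + 1) scale) of 8 zinc exporters (SLC30A family and TMEM163) and 12 importers (SLC39A family), by gene (x axis) and setting (colour). Filled points have a limma adjusted p under 0.05. SLC30A1 is filled and above 0 in both A549 settings and below 0 in both H2023 settings.

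The remaining lists hold pathways that share signals or metals with the metallothioneins. The shares of all genes called stand as above, 10.8% and 13.2% for limma in A549 normal culture and A549 oncospheres, and 22.1% and 20.7% in the authors' deposited table. Of 15 measured copper-handling genes, none passed limma's test in A549 normal culture and 1 fell in A549 oncospheres, the copper-binding ferroxidase CP (-1.87, adjusted p = 0.0242, limma). Of 12 genes of the heavy-metal and oxidative stress response, 1 fell in A549 normal culture (SRXN1, -0.59, adjusted p = 0.0441) and 4 rose in A549 oncospheres, among them HMOX1, heme oxygenase 1 (1.37, adjusted p = 0.0165), and TXNRD1, thioredoxin reductase 1 (0.77, adjusted p = 0.0334), limma. Of 11 measured genes of glucocorticoid signalling, 1 rose and 2 fell in A549 normal culture, led by ERRFI1 (-1.54, adjusted p = 0.00575) and DUSP1 (1.25, adjusted p = 0.0219), limma. In A549 oncospheres 2 rose and 2 fell, with ERRFI1 at -2.69 (adjusted p = 0.017, limma) and TAT among those that fell. In A549 normal culture the authors' deposited table called 3 copper genes higher (ATOX1, ATP7A and STEAP3) and 1 lower (STEAP2), 1 stress gene higher (SLC7A11) and 4 lower, and 4 glucocorticoid genes higher and 2 lower. In A549 oncospheres its counts were 1 higher and 2 lower for copper, 4 higher and none lower for stress, and 4 higher and 3 lower for glucocorticoid genes. In H2023 normal culture, the setting of its MT2A call, the authors' deposited table called 4 of the 12 stress genes lower and none higher, against 10.8% of all genes, including HMOX1 (-0.99) and GCLM (-0.96), a subunit of the glutathione-synthesis enzyme. There it also called 3 of the 11 glucocorticoid genes lower, led by SGK1 (-1.96) and DUSP1 (-1.15), and none higher. Of the 15 copper genes it called 2 lower and none higher. In A549 wild-type cells, where MT2A was lower in oncospheres, 8 of the 12 stress genes fell with culture and none rose, against 40.6% of all genes called in either direction, led by HMOX1 (-1.68, adjusted p = 0.00584) and GCLC (-1.36, adjusted p = 0.00308), limma. The A549 knockout calls of CP, SRXN1, HMOX1, TXNRD1, DUSP1 and ERRFI1 were likewise lost without any 1 of their 4 libraries, save ERRFI1 in oncospheres, where 3 of the 4 ended the call. Those fits too leave 1 library in a group for every gene, so the losses do not set the named genes apart. In A549 knockout cells 1 stress gene fell with culture (20.8% of all genes called), and in H2023 3 fell in wild-type (21.4%) and 2 in knockout cells (26.9%).

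Genes whose 8 group means were most like the summed metallothioneins were ranked among 4057 genes with a mean of at least 5 TPM and an SD of group means of at least 0.5 on the log2(TPM + 1) scale. FSD1 (Pearson r = 0.88), PHLDA1-AS1 (0.864), NECTIN3 (0.842), GJC1 (0.835) and RASSF10 (0.828) followed the sum most closely. RHOBTB1 (-0.955), IRS2 (-0.953), TM4SF20 (-0.951), CIDEC (-0.937) and FOXA1 (-0.924) ran most opposite. For MTF1 the closest were PCDHGC3 (0.993), PTP4A2 (0.989), NAB1 (0.986), LOC729654 (0.984) and TAF7 (0.983). Those most opposite were ZSCAN2 (-0.98), MAP2K1 (-0.975), F2RL1 (-0.974), ARHGEF17 (-0.972) and RPS4Y1 (-0.971). The MTF1 group means fell apart by line, at 2.276 to 2.567 in A549 and 3.018 to 3.169 in H2023 on the log2(TPM + 1) scale. A gene that differs between the lines can therefore rank high or low against MTF1 for that reason alone. The correlations describe 8 group means that share their libraries and carry no test.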

How the data were processed

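The authors deposited 4 tables, 1 per line and culture, with TPM values of 18227 genes in 4 libraries each. The same tables, per the file headers, hold a mean normalized count (a coverage signal over 4 libraries), a log2 fold change with its standard error, a statistic (a score), a p-value and an adjusted p-value. In every row the sign of the statistic is opposite to that of the fold change, from which directions were taken. The submitters' processing notes name HISAT2, StringTie and GRCh38; their roles and versions are not given in the sources used here. A stranded mRNA kit was used, per the labels' protocols; whether counting used strand is not given in the sources used here.

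Because TPM values are not counts, limma 3.58.1 in R 4.3.3 was run with its trend option on log2(TPM + 1), two-sided, with Benjamini-Hochberg adjustment over all 18227 genes and a threshold of 0.05. Differences on this scale understate the change of low genes. Knockout comparisons used 4 libraries, and culture and line contrasts the 8 libraries of a line or culture. The model was tested on simulated data. The members and gene lists were chosen with earlier results of these data known. Named genes are all members, and per further list at most 2 called genes of largest change. SLC39A14, SLC39A10 and VIM were chosen after their values were seen. Alternatives were another pseudocount, a filter at 1 TPM, rescaling without mitochondrial genes, centring on the median gene, 1 fit over all libraries, a replicate block, leaving out each library, and the authors' deposited statistics. Promoters came from RefSeq (GRCh38.p14).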

Additional observations from a re-analysis of the deposited data

Results flagged for a closer look

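The knockout effect on SLC30A1, the zinc exporter, differed between the lines: the interaction term (H2023 minus A549, limma on log2(TPM + 1), adjusted over all genes) was -1.415 in normal culture (adjusted p = 0.0182) and -1.168 in oncospheres (adjusted p = 0.046). All 4 A549 knockout libraries lay above the wild-type libraries of their culture, and in H2023 the groups were either lower (normal culture) or overlapping. The SLC30A1 value in normal culture did not pass without replicate 2 of the A549 knockout or of the H2023 wild type, or without either H2023 knockout library (-1.27 to -1.47, limma adjusted p of 0.0586 to 0.0732). In oncospheres it passed only without replicate 1 of the A549 knockout or replicate 2 of the H2023 wild type, and leaving out any of the other 6 libraries gave -0.91 to -1.26 (limma adjusted p of 0.0865 to 0.142).

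HMOX1, heme oxygenase 1, differed between the lines in the same sense, by -1.982 in normal culture (adjusted p = 0.0466) and -1.825 in oncospheres (adjusted p = 0.0111), limma. It measured 74.21 and 160.7 TPM in wild-type and 194.16 and 270.04 TPM in knockout A549 cells in normal culture, and 29.96 and 37.18 against 73.5 and 105.24 TPM in A549 oncospheres. In H2023 it measured 76.43 and 129.77 against 51.41 and 52.87 TPM in normal culture, and 48.05 and 55.27 against 41.73 and 33.46 TPM in oncospheres. The HMOX1 value in normal culture passed only without replicate 2 of the A549 wild type or replicate 1 of the H2023 wild type, and leaving out any of the other 6 libraries gave -1.43 to -2.22 (limma adjusted p of 0.0806 to 0.148). The oncosphere value passed without any 1 library (-1.57 to -2.08). For SLC30A1 and HMOX1 alike, a fit without 1 library leaves 1 in a group for every gene, so calls lost in it do not set them apart. No group of this design holds enough libraries for a search for single outlying samples.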

How the results depend on the processing

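The shares of all genes called in the refits below are not given here, so counts of the 4 measured genes do not set them apart. The number of the 4 measured genes called moved in these cases. With a replicate block it was 1 in each A549 knockout comparison and in the culture contrast of A549 wild type, and 0 in the line contrast in normal culture; in the culture contrast of A549 knockout it was 3 in place of 2, MT2A joining MT1F and MT1X. The block gave MT2A adjusted p of 0.0434 (0.58) in A549 normal culture, 0.00601 (1.01) in A549 oncospheres, 0.000315 (-1.25) in the culture contrast of A549 wild type and 0.00345 (-0.82) in that of A549 knockout, limma. The labels do not say that equal numbers pair the samples. Each comparison also holds only 2 pairs, so the numbers were not used as pairs. The deviations of same-numbered wild-type and knockout libraries correlated across genes at 0.093 and 0.177 in A549 and 0.0129 and 0.534 in H2023 (normal culture, then oncospheres). The correlation was highest in H2023 oncospheres, and what same-numbered libraries share was not tested. In H2023 normal culture 1 gene (MT2A) was called with a mean of at least 1 TPM required and 1 by the authors' deposited statistics. The culture contrast of A549 knockout called 0 in 1 fit over all 16 libraries. The line contrast in normal culture called 0 with a pseudocount of 0.1, without mitochondrial genes and after centring. The mean knockout effect called 0 without the H2023 normal libraries. Leaving out 1 library gave 0 to 1 calls for the culture contrast of A549 knockout, both line contrasts and the mean knockout effect. Where 1 library of a pair was left out, the lone sample was assumed to vary like the other groups. Other causes of these moves were not tested.

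Directions turned as follows, none of them in a value that passed the test. By the authors' deposited fold changes, MTF1 was -0.24 in A549 oncospheres and MT1F -0.096 in H2023 normal culture. After centring, the knockout effects in H2023 oncospheres were -0.050 for MT1F, -0.00174 for MT1X and -0.035 for MTF1, and the H2023 wild-type culture contrasts were 0.12 for MTF1 and 0.14 for SLC30A1. Centring also gave -0.061 for MT1F in the culture interaction of H2023, and -0.15 for MT1X and -0.14 for SLC30A1 in the line contrast in normal culture. MTF1 in the line interaction in normal culture was -0.016 after centring and -0.013 without mitochondrial genes. Without mitochondrial genes, SLC30A1 was -0.021 in the culture interaction of A549, and the H2023 wild-type culture contrasts were 0.089 for MTF1 and 0.13 for SLC30A1. Leaving out 1 library at a time turned the following ranges across 0. In the knockout effect in A549 normal culture, MT1X ran from -0.0876 to 0.407 and MTF1 from -0.433 to 0.0968. In the knockout effect in A549 oncospheres, MT1F ran from -0.0057 to 0.332. In the knockout effect in H2023 normal culture, MT1F ran from -0.473 to 0.479, MT1X from -0.137 to 0.652 and MTF1 from -0.305 to 0.00271. In the knockout effect in H2023 oncospheres, MT1F ran from -0.376 to 0.452, MT1X from -0.513 to 0.687, SLC30A1 from -0.279 to 0.101 and MTF1 from -0.0759 to 0.183. In the culture contrast of A549 wild type, MTF1 ran from -0.241 to 0.289. In the culture interaction of A549, SLC30A1 ran from -0.231 to 0.33 and MT2A from -0.174 to 1.04. In the culture contrast of H2023 wild type, MT1F ran from -0.406 to 0.546, MT1X from -0.273 to 0.674, MT2A from -0.615 to 0.724, SLC30A1 from -0.298 to 0.083 and MTF1 from -0.258 to 0.00111. In the culture contrast of H2023 knockout, MT1X ran from -0.57 to 0.63, MT1F from -0.164 to 0.375, MTF1 from -0.0775 to 0.23 and MT2A from -0.926 to 0.283. In the culture interaction of H2023, MT1F ran from -0.44 to 0.511, MT1X from -0.771 to 0.429 and MT2A from -1.05 to 0.294. In the line contrast in normal culture, MT1X ran from -0.337 to 0.451, SLC30A1 from -0.215 to 0.347 and MT1F from -0.0372 to 0.915. In the line interaction in normal culture, MTF1 ran from -0.248 to 0.282, MT1X from -0.297 to 0.492 and MT1F from -0.00564 to 0.946. In the line contrast in oncospheres, MT1F ran from -0.21 to 0.618. In the line interaction in oncospheres, MT2A ran from -0.823 to 0.516, MT1F from -0.539 to 0.289 and MTF1 from -0.174 to 0.085. In the mean knockout effect, MTF1 ran from -0.108 to 0.0244, MT1X from -0.197 to 0.103 and MT1F from -0.185 to 0.0532. Depth per library is unknown from TPM, and MT1F rests on the fewest reads.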
